A study of Mus musculus with 6 samples.

Results

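The genes described here are 10 scavenger and endocytic receptors of the liver sinusoid: Stab1, Stab2, Mrc1, Lyve1, Clec4g and Fcgr2b, known mainly from sinusoidal endothelium, and Marco, Msr1, Cd163 and Cd5l, known mainly from macrophages. They were picked by symbol, as 10 of the 32285 features counted in each library, with earlier results of these data known. Their RNA was measured in single liver nuclei of 6 male mice, 1 library per mouse. One group was 3 mice labelled Plvap knockout, with the gene deleted in hepatic stellate cells, the retinoid-storing pericytes of the sinusoid, and the other was 3 littermates labelled Plvap control. Both groups were 18 weeks old, of strain C57BL/6JBomTac, on chow and fasted for 12 hours overnight. Knockout and control mice carry the same source label, which joins the allele Plvaptm1.1Salm to the transgene Tg(Lrat-cre)1Rshw, in which Lrat regulatory sequence drives Cre, on a background written as B6.126(Cg). Whether each control mouse carried Cre is not stated in the sources used. Plvap encodes the diaphragm protein of caveolae and endothelial fenestrae, and the series asks what its loss in stellate cells does to the fasted liver.

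Scavenger receptors bind modified or spent macromolecules in blood and carry them by endocytosis to lysosomes. In the liver this work is shared between sinusoidal endothelial cells, which clear soluble material and small particles, and Kupffer cells, the resident macrophages, which also take up larger particles. The endothelial set comprises the stabilins, the mannose receptor, a hyaluronan receptor, a C-type lectin and an inhibitory Fc receptor. The macrophage set comprises the class A scavenger receptors Marco and Msr1 and the scavenger receptor cysteine-rich proteins Cd163 and Cd5l, of which Cd5l is secreted.

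On the mm10 genome, in GENCODE M21, Stab1 lies at chr14:31139013-31168641 and Stab2 at chr10:86841198-87008025, both on the minus strand and both with up to 69 exons. Mrc1 is at chr2:14229392-14332057 on the plus strand. Lyve1 is at chr7:110850607-110863239, Clec4g at chr8:3707064-3720651 and Fcgr2b at chr1:170958617-170976547, all on the minus strand. Marco at chr1:120474538-120505024 and Msr1 at chr8:39581685-39642673 are on the minus strand, and Cd163 at chr6:124304656-124330527 and Cd5l at chr3:87357881-87371073 are on the plus strand. Annotated antisense genes overlap Stab2 (Gm16268, Gm16280 and Gm16271), Clec4g (Gm16553) and Fcgr2b (Gm38204), and Nt5dc2 overlaps Stab1 by 112 bases. These antisense genes and Nt5dc2 were counted as features of their own. Whether counting used strand is not stated in the sources used, so whether any reads of the opposite strand entered these counts is not known.

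The promoters of 5 genes are printed because these genes follow the 2 patterns described below, endothelial for the stabilins and macrophage for the other 3. Each sequence runs 5′ to 3′ on the gene's own strand, from 250 bases before the RefSeq start to 50 after it (GRCm38.p6). Capitals mark 2 short cores searched on both strands, GAGGAA (reverse complement TTCCTC), the core of sites for the myeloid factor PU.1, and GATAA (reverse complement TTATC), the core of sites for GATA factors.
Stab1 (chr14:31168592-31168891, minus strand): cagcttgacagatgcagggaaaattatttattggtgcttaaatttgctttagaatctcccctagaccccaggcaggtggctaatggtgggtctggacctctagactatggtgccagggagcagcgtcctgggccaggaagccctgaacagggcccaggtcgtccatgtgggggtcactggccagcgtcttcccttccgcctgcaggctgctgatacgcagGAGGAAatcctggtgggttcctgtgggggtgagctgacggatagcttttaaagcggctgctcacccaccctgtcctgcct
Stab2 (chr10:87007893-87008192, minus strand): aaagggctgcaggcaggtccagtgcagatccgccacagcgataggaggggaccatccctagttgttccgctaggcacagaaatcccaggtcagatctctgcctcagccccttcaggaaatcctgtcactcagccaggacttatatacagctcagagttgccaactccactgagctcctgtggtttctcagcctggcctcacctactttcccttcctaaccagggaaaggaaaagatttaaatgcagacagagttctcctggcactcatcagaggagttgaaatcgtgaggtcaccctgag
Marco (chr1:120504975-120505274, minus strand): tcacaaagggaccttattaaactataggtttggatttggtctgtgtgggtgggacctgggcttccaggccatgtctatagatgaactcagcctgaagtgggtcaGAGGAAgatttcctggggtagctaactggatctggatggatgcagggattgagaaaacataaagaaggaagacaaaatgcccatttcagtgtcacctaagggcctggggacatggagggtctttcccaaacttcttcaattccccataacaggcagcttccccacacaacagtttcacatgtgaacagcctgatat
Cd163 (chr6:124304401-124304700, plus strand): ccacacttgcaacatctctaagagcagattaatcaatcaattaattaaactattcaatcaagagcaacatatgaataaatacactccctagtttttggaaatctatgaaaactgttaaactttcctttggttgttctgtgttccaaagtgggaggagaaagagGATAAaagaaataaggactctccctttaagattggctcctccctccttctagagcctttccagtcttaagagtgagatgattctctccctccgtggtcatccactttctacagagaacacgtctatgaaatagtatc
Cd5l (chr3:87357631-87357930, plus strand): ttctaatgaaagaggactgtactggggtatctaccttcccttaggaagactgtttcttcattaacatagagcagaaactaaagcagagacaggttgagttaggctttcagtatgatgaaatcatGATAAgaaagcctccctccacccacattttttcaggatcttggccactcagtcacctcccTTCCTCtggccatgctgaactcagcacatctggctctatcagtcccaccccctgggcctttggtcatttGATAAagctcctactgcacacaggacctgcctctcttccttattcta
No match overlapped another in these 5 sequences. The RefSeq table held promoters for 8 of the 10 genes, all but Lyve1 and Msr1. The PU.1 core was present in the promoters of Stab1, Marco, Cd5l and Mrc1 and in 28.3% of the 32851 promoters of the table. The GATA core was present in those of Cd163 and Cd5l and in 25.4% of all promoters. Neither was present in the windows of Stab2, Clec4g or Fcgr2b. Such matches describe the sequence and not binding.

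Libraries held 23153182 to 27199466 unique molecular identifiers (UMIs), with medians of 4076 to 5328 per kept nucleus. Knockout mice gave 4421, 4078 and 3954 kept nuclei and control mice 5006, 4675 and 3528, and any 2 libraries shared 1 to 10 cell barcodes. Plvap in stellate nuclei was at 225, 185 and 155 counts-per-million units (CPM) in knockout mice and 239.6, 213 and 239.6 CPM in control mice, and the groups overlapped. Which exons were deleted is not stated in the sources used, so a 3′ tag count does not check the deletion. Libraries differed in the makeup of their macrophages: nuclei of the Il1b-led cluster, described below, made up 76.7%, 89.1% and 7.41% of macrophages in knockout mice and 90.7%, 10.8% and 30.6% in control mice. In endothelial nuclei the summed level of 8 hepatocyte markers was 1032 to 1616 CPM in knockout and 718 to 952 CPM in control mice, with 6 of the 8 higher on average in knockout mice and none at 0. A wider list of 20 secreted and abundant hepatocyte genes was at 3402 to 5377 CPM in knockout and 2959 to 3664 CPM in control endothelial nuclei, which overlapped, and at 22919 to 28190 CPM in knockout and 16667 to 17814 CPM in control hepatocytes. The part of either list in the results below was not tested.

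Nuclei were clustered without the 10 genes and without Plvap, and clusters were named from markers that include none of them. Antisense genes overlapping the 10, such as Gm16271 at Stab2, were not left out. The names stand for endothelial-like, macrophage-like and similar nuclei and are written without the suffix below. The endothelial class held 9442 nuclei and the macrophage class 4620 of 25662 nuclei kept. All 12 endothelial markers were detected in each endothelial cluster, and 7 or 8 of the 8 macrophage markers in each macrophage cluster. Classes are clusters of the same nuclei, so levels between them are described and not tested.

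The 10 genes split into an endothelial and a macrophage set, with Mrc1 and Msr1 shared. Together they gave 1.33% of all UMIs of endothelial nuclei (1.18% to 1.45% over the 6 mice) and 0.653% of those of macrophages (0.529% to 0.841%), against 0.00721% in hepatocytes. Stab2, a clearance receptor for hyaluronan and other glycosaminoglycans, had 97.1% of its UMIs in endothelial nuclei, Clec4g 96.6%, Fcgr2b 94.1%, Lyve1 91.6% and Stab1 88.4%. Cd163, the receptor for haptoglobin-haemoglobin complexes, had 96.8% of its UMIs in macrophages, Cd5l 93.3% and Marco 89.1%. Mrc1 divided its UMIs into 60.8% endothelial and 37.3% macrophage, and Msr1 into 45.5% and 52.1%.

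**Figure D1:**
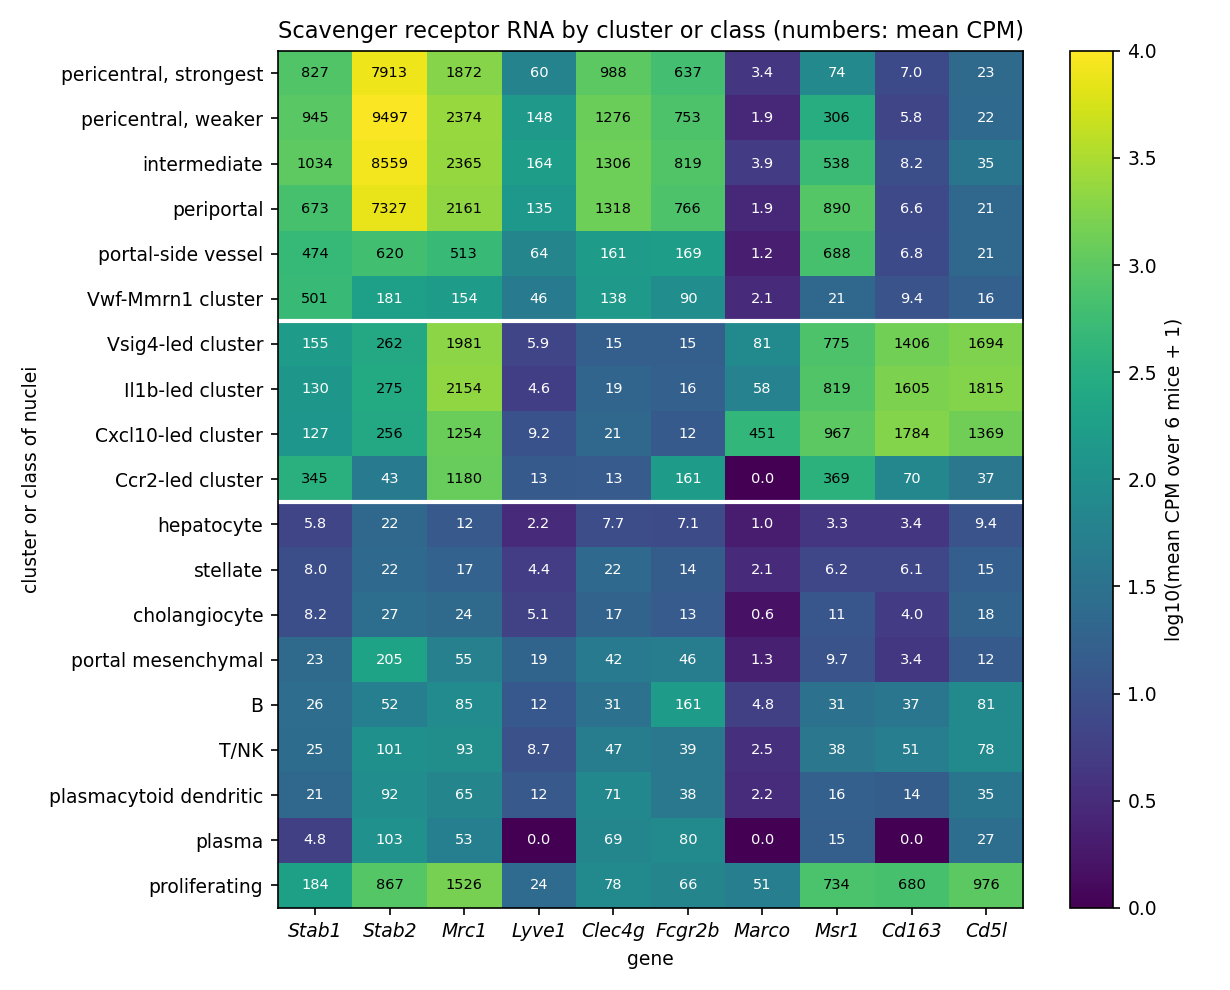
Heat map of the mean level of the 10 genes (columns) in 19 clusters or classes of nuclei (rows) over 6 mice. Colour is log10 of CPM + 1 on unscaled totals and the printed numbers are mean CPM; Stab2 stands at 7913 CPM in the pericentral strongest cluster and Cd163 at 1784 CPM in the Cxcl10-led cluster.

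Stab1, an endocytic receptor that also sorts ligands inside the cell, averaged 835 ± 117 CPM in endothelial nuclei and 139 ± 60.0 CPM in macrophages (SD, n = 6 mice of both genotypes). Stab2 averaged 7879.5 ± 641 CPM in endothelial nuclei, 256 ± 15.1 CPM in macrophages and 21.8 ± 8.05 CPM in hepatocytes. For both stabilins the endothelial values of the 6 mice lay above those of every other class, the next being the 93 proliferating nuclei, at 184 CPM for Stab1 and 867 CPM for Stab2. Clec4g, a lectin of the sinusoidal lining, averaged 1170.3 ± 231 CPM in endothelial nuclei and 14.6 CPM in macrophages. Lyve1, the hyaluronan receptor also used as a lymphatic marker, averaged 129 ± 40.4 CPM, 5.45 times its next class. Fcgr2b, the inhibitory IgG receptor, averaged 705 ± 93.5 CPM in endothelial nuclei and 161 CPM in B cells, where it is a known brake on the antigen receptor. None of the 5 endothelial genes named here had a mouse whose endothelial level reached the next class.

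Mrc1, the mannose receptor, was shared: it averaged 2098 ± 265 CPM in endothelial nuclei and 2011 ± 254 CPM in macrophages, and the 6 mice of the 2 classes overlapped. Msr1, the class A receptor for modified lipoproteins, averaged 854 ± 171 CPM in macrophages and 474 ± 58.5 CPM in endothelial nuclei, 12.5 times its level in T/NK cells. In each mouse the endothelial level of Msr1 was 0.459 to 0.670 times the macrophage level. Cd163 averaged 1516 ± 479.9 CPM in macrophages and Cd5l, an inhibitor of apoptosis made under liver X receptor control, 1598 ± 718 CPM. Marco, the class A receptor of marginal zone and some Kupffer macrophages, averaged 80.8 ± 79.2 CPM in macrophages. The SD of Marco was about as large as its mean, and its lowest and highest mice were both knockout mice. Proliferating nuclei, whose next best marker score was that of macrophages, carried both sets, with Mrc1 at 1526, Cd5l at 976 and Cd163 at 680.3 CPM.

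Low levels elsewhere were read beside free RNA. When each nucleus was thinned to 1500 UMIs, Stab2 had a UMI in 93.0% to 94.7% of endothelial nuclei of knockout mice and 91.7% to 94.2% of those of control mice. The same share was 25.4% to 32.9% in macrophages and 1.53% to 3.62% in hepatocytes, which should lack the gene. Unthinned, it was 92.7% to 95.7% in endothelial nuclei, 56.6% to 67.4% in macrophages and 12.6% to 20.2% in hepatocytes. Their median depths were 3183 to 3978, 4021 to 5231 and 9185 to 11740 UMIs. Per library, 15 to 97 endothelial, 8 to 50 macrophage and 0 to 10 hepatocyte nuclei were too shallow to be thinned. Macrophages carried Stab2 UMIs at a share above that of hepatocytes. The ratio of Stab2 to Clec4g UMIs had a median of 18.3 in macrophages (13.3 to 24.6 over the mice) and 6.82 in endothelial nuclei (5.70 to 9.16). It was 2.53 in hepatocytes (2.35 to 3.62) and 0.873 in stellate nuclei (0.564 to 1.87), so it also differed between classes with few Stab2 UMIs. The part of free RNA in the macrophage UMIs was not tested. A UMI of Mrc1 was found in 85.1% to 90.1% of thinned endothelial nuclei and 84.7% to 93.1% of macrophages, against 1.02% to 2.51% of hepatocytes, and unthinned in 91.1% to 96.0%, 96.6% to 97.8% and 6.83% to 13.5%. Of the 7 receptors Stab1, Stab2, Mrc1, Lyve1, Clec4g, Fcgr2b and Msr1, at least 3 were detected together in 92.5%, 90.3% and 93.3% of thinned endothelial nuclei of knockout mice and in 91.3%, 90.5% and 93.7% of those of control mice.

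Within the endothelium, Msr1 was highest on the portal side and Lyve1 was low at the central end and in both vessel-type clusters, while the stabilins, Mrc1, Clec4g and Fcgr2b were carried by all 4 sinusoidal clusters and all of these but Stab1 were low in the vessel-type clusters. The clusters were a pericentral cluster with the strongest zone markers (1453 nuclei), a weaker pericentral cluster (2759), an intermediate cluster (2295), a periportal cluster (2295), a portal-side vessel cluster (445) and a cluster of 195 nuclei led by Vwf and the lymphatic marker Mmrn1. Over the marker sets this Vwf-Mmrn1 cluster scored 1.32 for lymphatic, 1.01 for pericentral and 0.0527 for large vessel, as mean z-scores among the endothelial clusters, so it is called by its leading genes. Its level of the pericentral marker Wnt9b was the highest of the endothelial clusters, at 455 CPM against 113 CPM in the strongest pericentral one. It is grouped as vessel-type only because the large-vessel markers Vwf and Edn1 were among its leading genes. From the central to the portal end of the 4 sinusoidal clusters, the pericentral marker Wnt2 was at 434, 241, 92.7 and 68.2 CPM and the periportal marker Ntn4 was at 186, 242, 433 and 902 CPM. The intermediate cluster had no zone marker among its leading genes. It scored -0.561 for pericentral and 0.156 for periportal markers, against -0.576 and 0.658 in the periportal cluster. It was also the shallowest, with a median of 2404 UMIs against 3692 to 4053 in the other sinusoidal clusters.

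Msr1 was at 74.3 ± 24.8, 306 ± 40.8, 538 ± 76.2 and 890.3 ± 139 CPM over the same 4 clusters (SD, n = 6). It was at 688 ± 146 CPM in portal-side vessels and 20.9 ± 14.3 CPM in the Vwf-Mmrn1 cluster. The 6 mice did not overlap between the 2 pericentral clusters, or between the weaker one and the intermediate cluster. Within a mouse the periportal level was 8.99 to 28.2 times the strongest pericentral level, and 5 of the 4007 genes at 50 CPM or more in either cluster had a higher ratio of means. After thinning, a UMI of Msr1 was found in 53.5% to 71.8% of periportal and 5.09% to 13.7% of strongest pericentral nuclei, against 0.435% to 0.773% of hepatocytes. Unthinned, these shares were 81.0% to 88.9% and 9.95% to 24.2%, against 2.13% to 3.85% of hepatocytes.

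Lyve1 was at 59.8 ± 25.6, 148 ± 37.9, 164 ± 51.9 and 135 ± 55.7 CPM from the central to the portal end. Its periportal level was 1.53 to 3.38 times the strongest pericentral level, higher in 6 of 6 mice, and 50 of 4007 genes had a higher ratio. The weaker pericentral, intermediate and periportal clusters overlapped for Lyve1. Stab1, highest in the intermediate and lowest in the periportal of these clusters, was at 827 ± 131, 945 ± 152, 1034 ± 216 and 673 ± 117 CPM, and was lower in periportal than in strongest pericentral nuclei in 6 of 6 mice, at 0.654 to 0.960 times. Clec4g was higher in periportal than in strongest pericentral nuclei in 6 of 6 mice, at 1.16 to 1.42 times, and Fcgr2b in 6 of 6, at 1.07 to 1.35 times. Sinusoidal clusters that were neighbours in the order of their levels overlapped over mice for Stab1, Stab2, Mrc1, Clec4g and Fcgr2b.

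The vessel-type clusters separated the genes further. Stab2 was at 9497 ± 782 CPM in its highest cluster, 619.5 ± 222 CPM in portal-side vessels and 181 ± 183 CPM in the Vwf-Mmrn1 cluster. Stab2 and its antisense partner Gm16271 were among the leading genes of that highest cluster, the weaker pericentral one, so its level there is a description. The portal-side level of Stab2 was 0.0475 to 0.148 times the periportal one within a mouse, and 27 of 4383 genes had a lower ratio of means. Clec4g was at 0.100 to 0.166, Fcgr2b at 0.165 to 0.275 and Mrc1 at 0.155 to 0.284 times its periportal level. Lyve1 was at 64.3 ± 22.7 CPM in portal-side vessels, lower than in periportal nuclei in 6 of 6 mice and overlapping the strongest pericentral cluster, and at 45.6 ± 28.8 CPM in the Vwf-Mmrn1 cluster. Msr1 was at 0.622 to 0.936 times its periportal level in portal-side vessels. Stab1 was at 0.425 to 1.27 times, lower in 5 of 6 mice, and at 0.482 to 0.782 times the strongest pericentral level in the Vwf-Mmrn1 cluster. By the ratio of means, portal-side vessels held 0.705 times the periportal level of Stab1 and 0.0846 times that of Stab2, and the Vwf-Mmrn1 cluster 0.605 and 0.0229 times the strongest pericentral level.

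**Figure D2:**
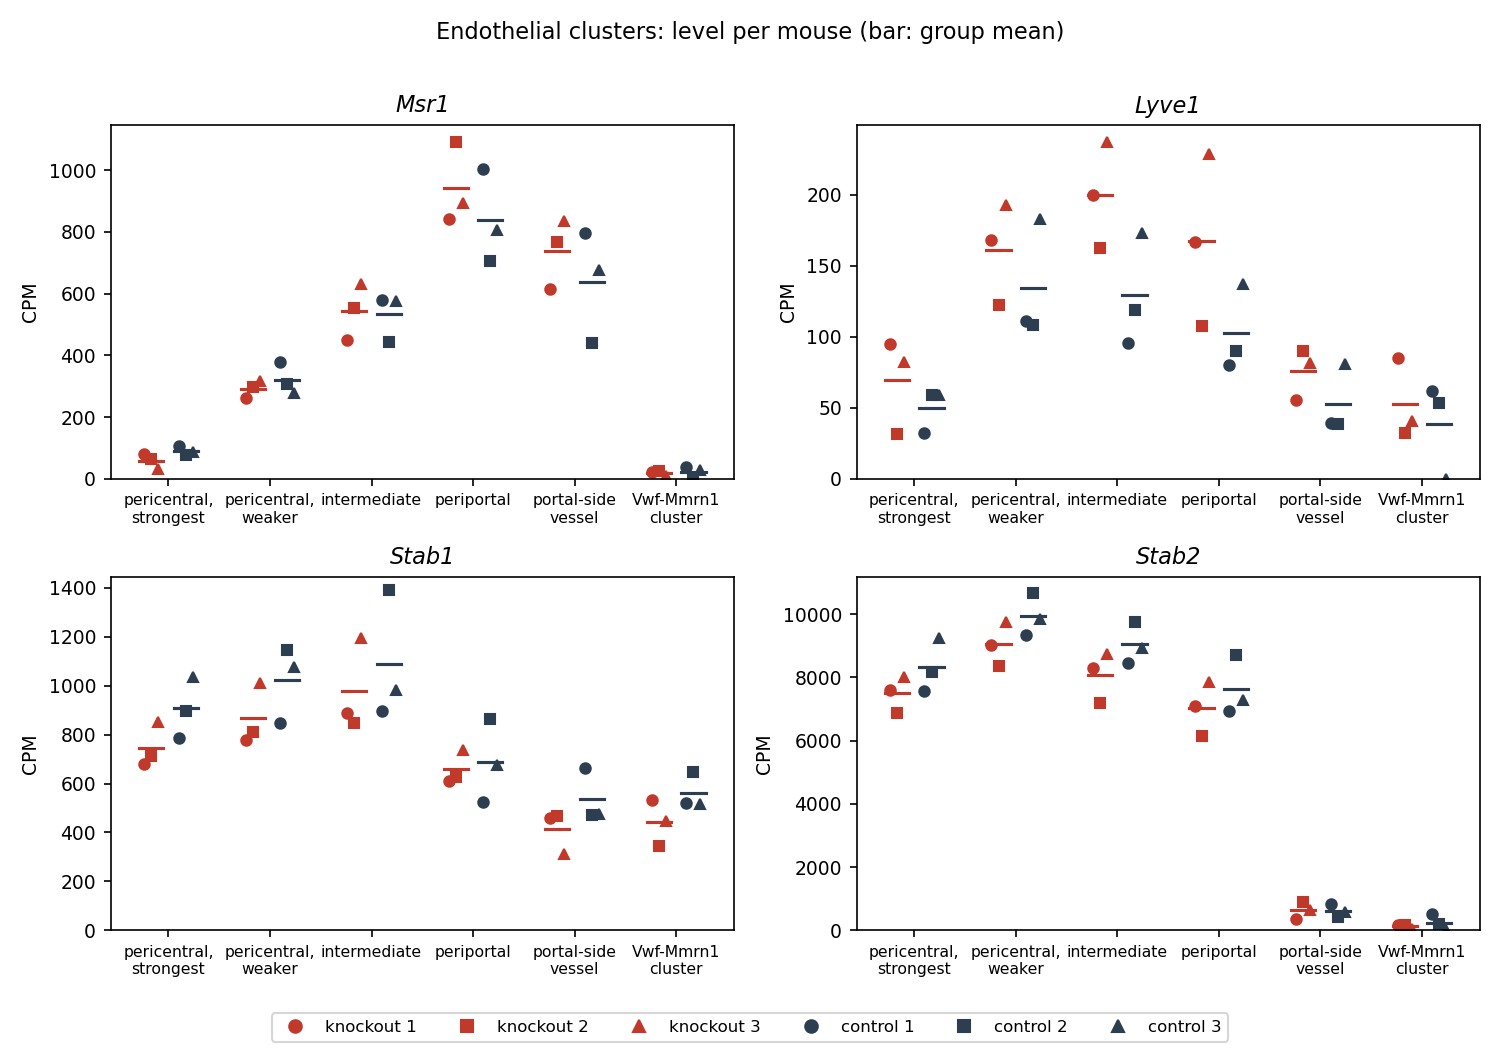
Levels of Msr1, Lyve1, Stab1 and Stab2 (CPM on unscaled totals, vertical axes starting at 0) in 6 endothelial clusters, with 1 point per mouse and a bar for each group mean. Msr1 has a mean of 890.3 CPM in periportal nuclei, and Stab2 of 181 CPM in the Vwf-Mmrn1 cluster, where Stab1 is at 501 CPM.

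Macrophages fell into 2 large clusters and 2 small ones, called here by genes that lead them over pooled nuclei. The Vsig4-led cluster (1919 nuclei) also had Clec4f, Cd163 and Cd5l among its leading genes, the Il1b-led cluster (2364) the cytokine gene Il1b with Timd4 and Cd86, the Cxcl10-led cluster (136) the interferon-induced genes Gbp5, Cxcl9 and Cxcl10 with Marco, and the Ccr2-led cluster (201) the monocyte chemokine receptor Ccr2. Both large clusters were Kupffer-like, with scores of 0.548 and 0.505 on 5 Kupffer markers. The Il1b-led cluster scored -0.265 on 7 Il1b-type markers and the Cxcl10-led cluster 1.21, with Il1b at 347 CPM in the Cxcl10-led, 159 CPM in the Il1b-led and 27.5 CPM in the Vsig4-led cluster.

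Pooled nuclei weight the libraries unequally, since the Vsig4-led cluster held 16.3%, 4.99% and 87.2% of macrophages in knockout and 5.72%, 75.1% and 62.1% in control mice. As means over mice, Clec4f was higher in the Il1b-led cluster (4551 CPM) than in the Vsig4-led one (3667 CPM), and so were Cd163, in 5 of 6 mice, and Cd5l, in 4 of 6. Of the Ccr2-led nuclei, 54.2% came from control 2. Because Cd163, Cd5l and Marco are among the leading genes of these clusters, their levels there are a description.

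Marco was at 572, 158 and 1196 CPM in the Cxcl10-led cluster of knockout mice and 45.3, 393 and 344 CPM in that of control mice. In the Vsig4-led cluster it was at 98.5, 33.0 and 219.7 CPM in knockout and 31.7, 53.5 and 46.7 CPM in control mice. Within each of the 6 mice the Cxcl10-led cluster was higher, by 1.43 to 7.37 times, and 38 of 4276 genes had a higher ratio of means. No Marco UMI was counted in the 201 Ccr2-led nuclei, which allows up to 3.50 CPM, or a share of up to 1.49% of nuclei with a UMI. The Cxcl10-led cluster rests on 13 to 35 nuclei per mouse.

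The Ccr2-led cluster differed from the Vsig4-led cluster in the same direction in 6 of 6 mice for most of the genes. Fcgr2b was at 161 ± 52.3 CPM there and 15.4 ± 4.64 CPM in the Vsig4-led cluster, and Stab1 at 345 ± 96.2 and 155 ± 41.4 CPM. Cd163 was at 69.8 ± 66.6 CPM against 1406 ± 698 CPM, and Cd5l at 37.3 ± 20.9 against 1694 ± 775 CPM. Mrc1 and Msr1 were at 0.596 and 0.477 times their Vsig4-led level by the ratio of means, and Stab2 at 0.162 times. Between the Il1b-led and Vsig4-led clusters all of the genes overlapped over mice, Cd163 at 1605 ± 563 and 1406 ± 698 CPM and Cd5l at 1815 ± 968 and 1694 ± 775 CPM.

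**Figure D3:**
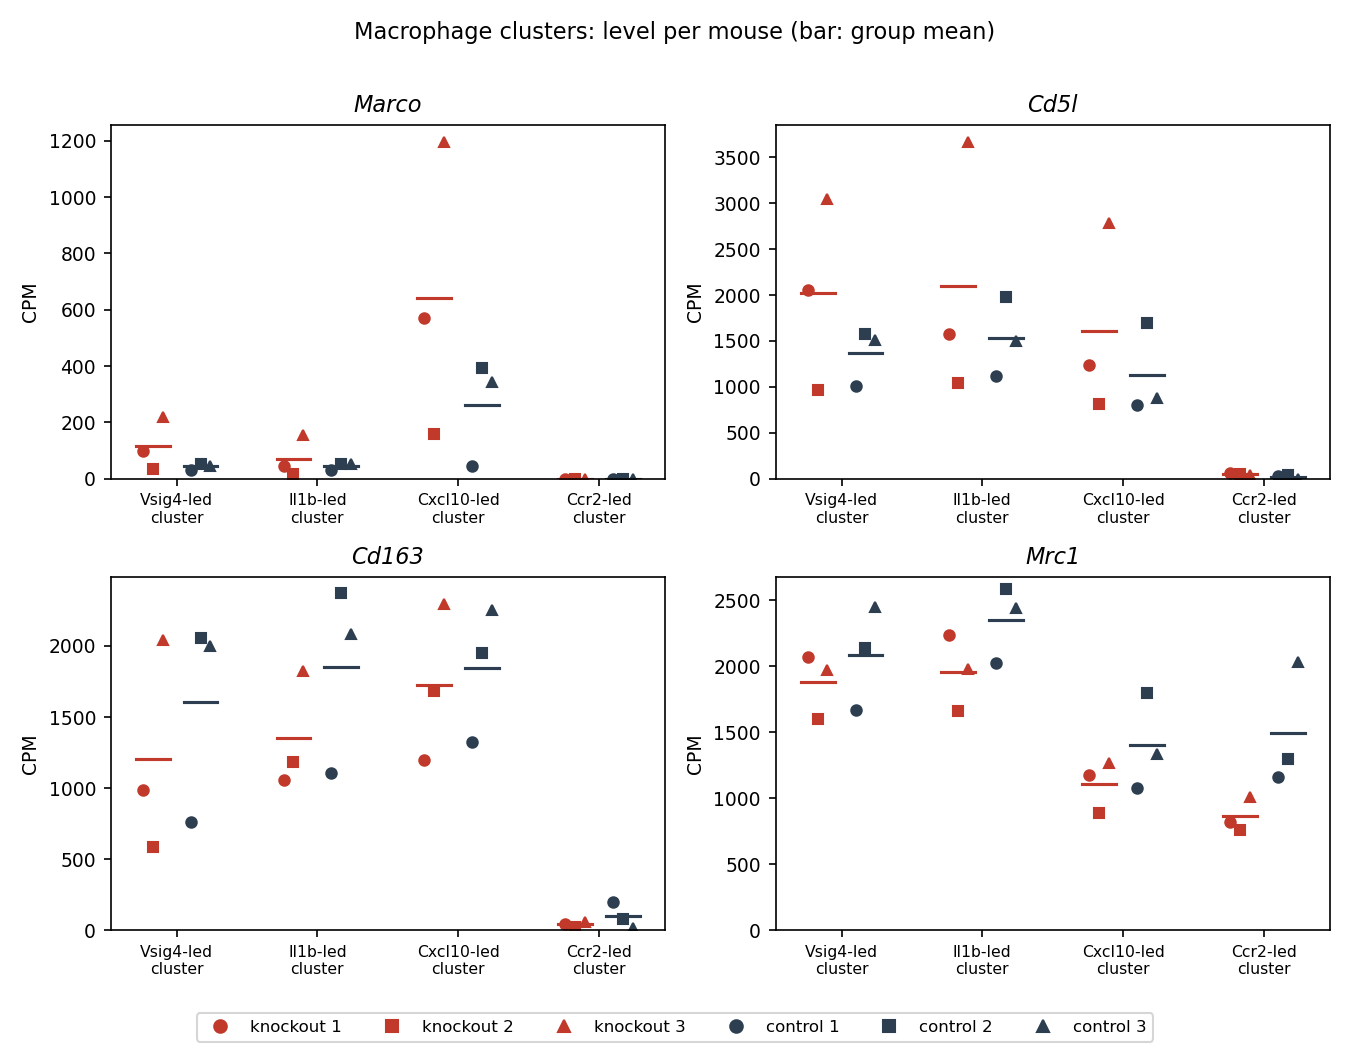
Levels of Marco, Cd5l, Cd163 and Mrc1 (CPM on unscaled totals, vertical axes starting at 0) in 4 macrophage clusters, with 1 point per mouse and a bar for each group mean. Marco is highest in the Cxcl10-led cluster, up to 1196 CPM in knockout 3, and Cd163 and Cd5l average 69.8 and 37.3 CPM in the Ccr2-led cluster.

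The comparison of knockout with control mice asked whether the receptors of endothelial cells and macrophages change when Plvap is deleted in neighbouring stellate cells. None of the 10 genes passed the test in either class, which leaves changes of the sizes within the intervals below undetected rather than absent. In endothelial nuclei all 10 were tested and 0 were called by edgeR's quasi-likelihood test at an adjusted p of 0.05, and 0% of 13377 genes were, with 573 at an unadjusted p under 0.05 and 22 called by DESeq2. None of the 10 had groups that did not overlap, against 9.44% of all genes. The fitted changes of the 10 had a median of 0.012 on the log2 scale, against -0.0043 over all genes. The levels below are CPM on TMM-scaled totals of the class, the scale of the fit, and fold changes are log2 of knockout over control.

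Stab1 was at 706, 704 and 891 CPM in knockout mice and 765, 1022 and 953 CPM in control mice. Its highest value was in control 2 and its lowest in knockout 2, with the groups overlapping. The fitted change was -0.25 (SE 0.14, 95% interval -0.56 to 0.056, unadjusted p 0.0984 by edgeR). Stab2 was at 7622, 6538 and 8079 CPM in knockout mice and 7788, 8788 and 8718 CPM in control mice. Knockout 2 was the lowest, and knockout 3 lay above control 1. The change of Stab2 was -0.19 (SE 0.11, interval -0.44 to 0.068).

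Mrc1 was at 1949, 1923 and 2388 CPM in knockout mice and 1752, 2089.9 and 2552 CPM in control mice, with both the lowest and the highest value in controls. Its change was -0.031 (interval -0.36 to 0.30). Lyve1 was at 151, 105 and 189 CPM in knockout mice and 86.5, 91.1 and 154 CPM in control mice. Each knockout mouse was above control 1 and control 2, and control 3 was above knockout 1 and 2. The change of Lyve1 was 0.43 (SE 0.29, interval -0.26 to 1.12, unadjusted p 0.183 by edgeR).

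Clec4g was at 1082, 954 and 1418 CPM in knockout and 851, 1297 and 1469 CPM in control mice, a change of -0.066 (interval -0.58 to 0.44). Control 1 was the lowest and control 3 the highest of the 6. Fcgr2b was at 790.3, 639.6 and 825 CPM in knockout and 575, 659 and 761 CPM in control mice, a change of 0.18 (interval -0.12 to 0.48). Msr1 was at 421, 495 and 535 CPM in knockout and 517, 404 and 477 CPM in control mice, a change of 0.054 (interval -0.23 to 0.34). The groups overlapped for all 3. The 3 genes led by macrophages had few UMIs in endothelial nuclei, Marco 55 in knockout and 25 in control mice, Cd163 97 and 140, and Cd5l 448 and 397, and their groups overlapped.

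**Figure D4:**
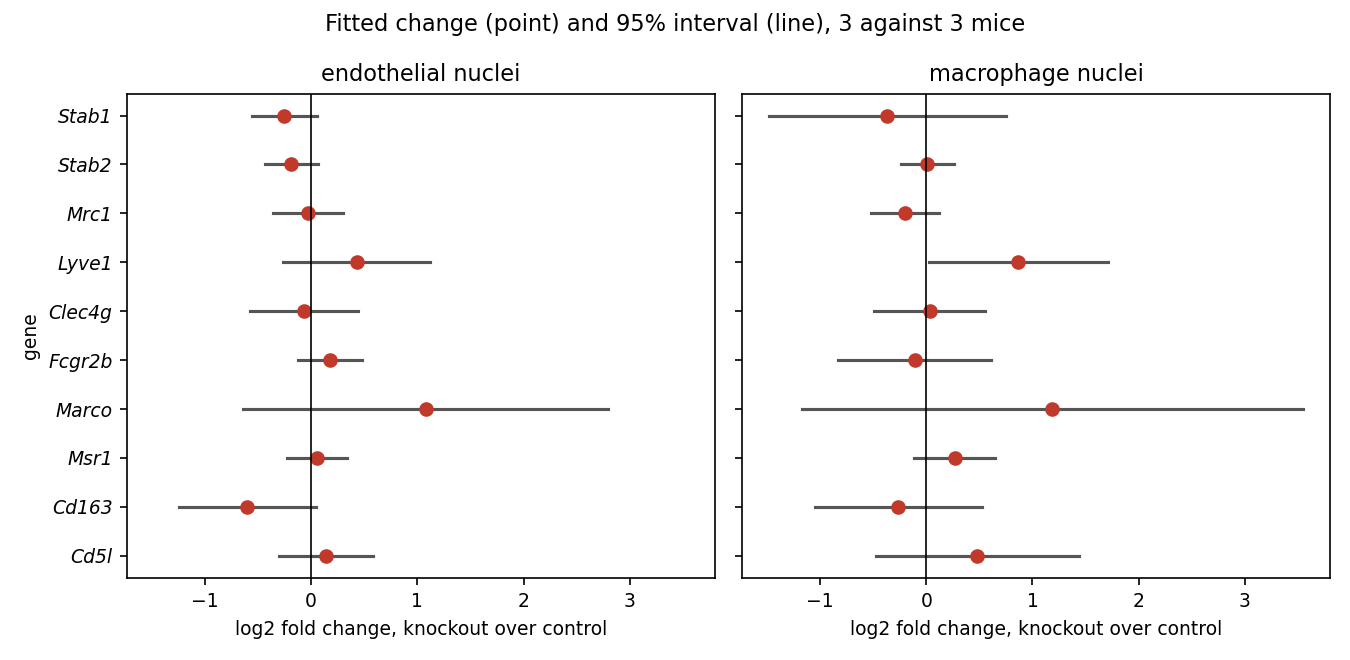
Fitted log2 fold change of the 10 genes, knockout over control (points), with 95% intervals (lines), in endothelial nuclei (left) and macrophages (right), 3 mice against 3. Intervals include 0 for all 10 genes in endothelial nuclei and for 9 in macrophages, and the widest among macrophages is that of Marco, from -1.17 to 3.55.

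In macrophages, 0 of the 10 genes were called, against 0% of 12126 genes tested by edgeR, with 406 at an unadjusted p under 0.05 and 7 called by DESeq2. None of the 10 had groups that did not overlap, against 8.75% of all genes. Marco was at 81.4, 20.3 and 236 CPM in knockout mice and 29.7, 54.1 and 65.4 CPM in control mice. Knockout mice held both the lowest and the highest value. The fitted change was 1.19 (SE 0.91, interval -1.17 to 3.55). Without knockout 3 it was 0.023.

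Cd5l was at 1621, 1004 and 2991 CPM in knockout mice and 1088, 1439 and 1499.8 CPM in control mice, again with both extremes in knockout mice. Its change was 0.48 (interval -0.48 to 1.44), and -0.032 without knockout 3. Cd163 was at 1032, 1137 and 1996 CPM in knockout mice and 1071, 1862 and 2068 CPM in control mice. Knockout 1, knockout 2 and control 1 were low and the other 3 mice were near 2000 CPM; the same 3 low mice had most of their macrophages in the Il1b-led cluster. The change of Cd163 was -0.26 (interval -1.05 to 0.52), and -0.38 without control 1 and knockout 2. The part of this makeup in these values was not tested in this fit.

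Msr1 was at 873, 1113 and 823 CPM in knockout mice and 960.2, 671 and 704 CPM in control mice, a change of 0.27 (interval -0.11 to 0.64). Control 1 was above knockout 1 and 3, so the groups overlapped. Mrc1 was at 2121, 1602 and 1933 CPM in knockout mice and 1963, 2074 and 2457 CPM in control mice, a change of -0.20 (interval -0.52 to 0.12), with knockout 1 above control 1 and control 2. Stab1 was at 107, 103 and 156 CPM in knockout mice and 69.1, 240.1 and 163 CPM in control mice, with the extremes in controls, a change of -0.37 (interval -1.48 to 0.75). Without control 2, which held most of the Ccr2-led nuclei, the change of Stab1 was 0.079. Those nuclei made up 12.5% of control 2 macrophages, and their part in the Stab1 values was not tested. Lyve1 had the smallest unadjusted p, 0.0449 by edgeR, at 10.7, 5.48 and 7.87 CPM in knockout and 2.36, 5.83 and 4.80 CPM in control mice. It rests on 86 UMIs in knockout and 50 in control mice, the groups overlapped, and its adjusted p was 1.00.

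The knockout effect was compared between endothelial nuclei and macrophages of the same mice, and 0 of the 10 genes, and 0% of 14119 genes, differed by edgeR at an adjusted p of 0.05, with 593 genes at an unadjusted p under 0.05. The smallest unadjusted p of the 10 was that of Cd163, whose difference, endothelial minus macrophage, was -0.35 (SE 0.22, p 0.132). For the shared receptors it was 0.19 (interval -0.15 to 0.54) for Mrc1 and -0.21 (interval -0.57 to 0.16) for Msr1.

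Taken by zone, the periportal to pericentral ratio of Msr1 and Lyve1 was higher in knockout than in control mice over the pooled pericentral clusters, and neither difference passed the threshold. The pooled level mixes 2 clusters that differed in both genes, and their mix varied between mice. The strongest cluster gave 372 of 893, 209 of 636 and 181 of 577 pooled pericentral nuclei in knockout mice. In control mice it gave 216 of 828, 355 of 749 and 120 of 529. The part of this mix in the pooled ratios and the joint fit was not tested. The ratio of the periportal to the pericentral level of Msr1, over both pericentral clusters, was 4.45, 4.82 and 3.84 in knockout mice and 3.20, 3.48 and 3.44 in control mice. All 3 knockout mice were above all 3 control mice. How many of all genes separate the groups by such a ratio was not counted. For levels, 9.48% of genes in the pooled pericentral and 9.85% in periportal nuclei had groups that did not overlap. Against the strongest pericentral cluster alone the Msr1 ratio was 10.6, 16.8 and 28.2 in knockout and 9.50, 8.99 and 9.43 in control mice, also without overlap. Against the larger, weaker cluster it was 3.21, 3.67 and 2.83 in knockout and 2.65, 2.30 and 2.91 in control mice, where knockout 3 lay below control 3. In the joint fit the difference of the effects on Msr1, pericentral minus periportal, was -0.38 (SE 0.089, interval -0.56 to -0.20). By edgeR's quasi-likelihood test its p was 5.86e-05 before adjustment and 0.0971 after adjustment over 11591 genes. In that test 0 of the 10 genes were called, against 0.0345% of all genes.

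For Lyve1 the ratio was 1.20, 1.14 and 1.42 in knockout mice and 0.870, 1.05 and 0.881 in control mice, again without overlap and with 2 of 3 control mice below 1. Against the weaker cluster alone it was 0.992, 0.880 and 1.19 in knockout and 0.723, 0.830 and 0.750 in control mice, without overlap. Against the strongest cluster it was 1.75, 3.38 and 2.78 in knockout and 2.49, 1.53 and 2.33 in control mice, which overlapped. The difference over both clusters was -0.44 (SE 0.13, unadjusted p 0.00105, adjusted p 0.380 by edgeR). For Stab1 it was 0.825, 0.801 and 0.765 in knockout and 0.628, 0.836 and 0.634 in control mice, with control 2 above all knockout mice. Its difference was -0.19 (SE 0.087, adjusted p 0.997 by edgeR). Without control 2, 2 of the 10 passed by edgeR, Msr1 at -0.40 (adjusted p 0.0153) and Stab1 at -0.34 (adjusted p 0.0479). How many of all genes passed in that fit was not counted. Control 2 had 19.8% of its endothelial nuclei in the strongest pericentral cluster, against 11.8% in control 1 and 11.0% in control 3. The part of this makeup in that fit was not tested. For Msr1 the adjusted p ranged from 0.0153 to 0.803 when mice were left out, with -0.27 and 0.803 without control 1 and knockout 2.

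**Figure D5:**
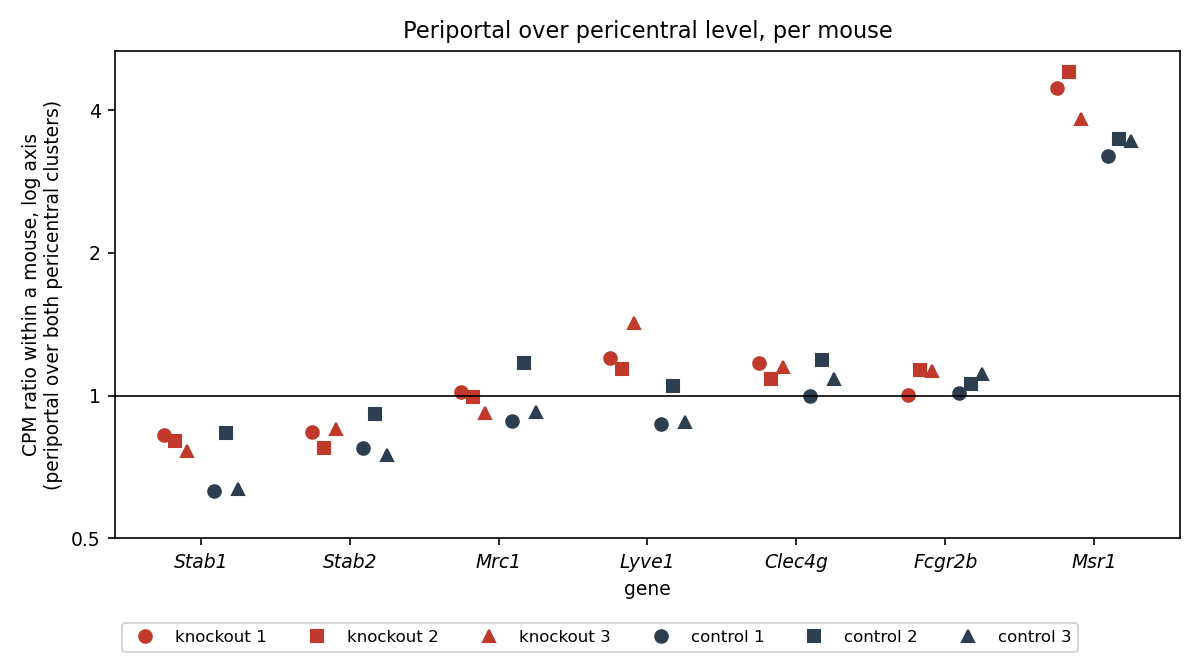
Ratio of the periportal level to the level of both pericentral clusters for 7 genes, 1 point per mouse, on a log axis where 1 is no difference; CPM are on unscaled totals. For Msr1 the knockout mice sit at 3.84 to 4.82 and the control mice at 3.20 to 3.48, and for Lyve1 at 1.14 to 1.42 and 0.870 to 1.05.

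Summed zone markers of both kinds were lower in knockout than in control mice in the periportal cluster, and these sums were not tested. In the periportal cluster the summed level of 6 periportal markers was 3835 to 5291 CPM in knockout and 6136 to 6428 CPM in control mice, with 1 of 6 higher on average in knockout mice. The 6 pericentral markers there were at 419 to 535 CPM in knockout and 565 to 1005 CPM in control mice. The share of endothelial nuclei in the periportal cluster was 25.8% ± 3.47 in knockout and 23.1% ± 4.94 in control mice (SD, n = 3 each). The strongest pericentral cluster held 15.8% ± 4.13 in knockout and 14.2% ± 4.89 in control mice. No marker of these sets was at 0 in the periportal cluster, and their part in the Msr1 and Lyve1 values was not tested.

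Within single zones, 0 of the genes tested were called. In periportal nuclei 9 were tested, and 0.0395% of 10126 genes were called by edgeR; groups did not overlap in 0 of the 9, against 9.85% of all genes. Cd163, on 60 UMIs, had an unadjusted p of 0.0415 by edgeR. Msr1 was at 845, 1068 and 907 CPM there in knockout and 995, 739.7 and 845 CPM in control mice, a change of 0.13 (interval -0.17 to 0.42). Lyve1 was at 168, 105 and 232 CPM in knockout and 79.5, 94.4 and 144 CPM in control mice, a change of 0.68 (SE 0.33, interval -0.12 to 1.49). The groups overlapped, with control 1 above 2 knockout mice for Msr1 and control 3 above knockout 2 for Lyve1.

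In the strongest pericentral cluster 8 genes were tested, 0 were called, against 0.0468% of 8546 genes, and 1 had groups that did not overlap, against 9.5% of all genes. That gene was Msr1, at 81.7, 64.9 and 32.6 CPM in knockout and 106, 82.8 and 91.1 CPM in control mice on the TMM scale. Its change was -0.58 (SE 0.26, unadjusted p 0.0427, adjusted p 0.999 by edgeR). On unscaled totals knockout 1, at 79.7 CPM, was above control 2, at 78.5 CPM. In the weaker pericentral cluster Msr1 was at 264, 291 and 317 CPM in knockout and 378, 320.0 and 288 CPM in control mice, where knockout 2 and knockout 3 were above control 3. There 0 of 8 genes were called, against 0% of 10542, with 447 at an unadjusted p under 0.05 by edgeR, and 0 of 8 were without overlap, against 9.55%. Over both pericentral clusters 0 of 9 genes were called, against 0% of 11612 and 483 at an unadjusted p under 0.05, and 0 of 9 were without overlap, against 9.48%.

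In the intermediate cluster, Lyve1 was at 202, 161 and 242 CPM in knockout and 96.2, 124 and 184 CPM in control mice. Control 3 lay above knockout 2. The change was 0.61 (SE 0.22, unadjusted p 0.0172, adjusted p 1.00 by edgeR), with 0 of 8 genes called, against 0% of 9270 and 363 at an unadjusted p under 0.05. None of the 8 was without overlap, against 9.36% of all genes. In portal-side vessels, Stab1 was at 512, 518 and 359 CPM in knockout and 729.9, 537 and 538 CPM in control mice. It was the 1 of 7 genes tested there whose groups did not overlap, against 9.68% of 5061 genes, at a change of -0.38 (unadjusted p 0.0828, adjusted p 1.00 by edgeR) on 317 UMIs in knockout and 454 in control mice. None of the 7 was called there, against 0% of all genes and 202 at an unadjusted p under 0.05.

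Taken by macrophage cluster, Marco had the largest fitted change of the 9 genes tested in the Vsig4-led cluster, and not in the Il1b-led one. In the Vsig4-led cluster it was at 100.4, 32.0 and 226 CPM in knockout and 31.4, 55.3 and 49.1 CPM in control mice. Knockout 1 and knockout 3 were above all controls and knockout 2 was below control 2 and control 3. The change was 1.57 (SE 0.48, interval 0.45 to 2.69, unadjusted p 0.0129, adjusted p 1.00 by edgeR), and 0.67 without knockout 3. In this cluster knockout 2 and control 1 rest on 36 and 51 nuclei, and the mouse with the fewest Marco UMIs had 6. Of 9 genes tested in this cluster 0 were called, against 0.00994% of 10062.

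Msr1 in the Vsig4-led cluster was at 892, 805 and 853 CPM in knockout and 717, 749 and 699.9 CPM in control mice, the 1 gene of 9 without overlap, against 9.66% of all genes. Its change was 0.24 (interval -0.066 to 0.54, unadjusted p 0.117 by edgeR). In the Il1b-led cluster Msr1 was at 883, 1183 and 627 CPM in knockout and 1003, 512 and 778 CPM in control mice, which overlapped widely. Marco in the Il1b-led cluster was at 44.8, 15.7 and 149 CPM in knockout and 30.2, 53.7 and 54.6 CPM in control mice, a change of -0.065 (interval -1.96 to 1.83). The sign of this fit differs from that of the means of these values, 69.7 CPM in knockout and 46.2 CPM in control mice. The value of knockout 3 rests on 56 nuclei with a median of 1976 UMIs, and the gene on 176 UMIs in knockout and 163 in control mice. The Il1b-led minus Vsig4-led difference of the effect on Marco, which rests on these counts, was below 0 (interval -1.66 to -0.34, SE 0.33, unadjusted p 0.00328, adjusted p 0.999 by edgeR), and 0 of 10 genes were called, against 0% of 10930, with 335 at an unadjusted p under 0.05.

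Cd163 in the Il1b-led cluster was at 1073, 1207 and 1757 CPM in knockout and 1123, 2424 and 2185 CPM in control mice, a change of -0.52 (interval -1.12 to 0.084). In the Vsig4-led cluster it was at 1006, 570.5 and 2102 CPM in knockout and 753, 2122 and 2105 CPM in control mice. In both clusters knockout 1, knockout 2 and control 1 were the lowest, so the split of the libraries in Cd163 was also present within each cluster. In the Il1b-led cluster 0 of 9 genes were called by edgeR, against 0% of 10141, with 162 at an unadjusted p under 0.05, and 0 of 9 were without overlap, against 8.37%.

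In other classes the genes were present at low counts. In stellate cells 9 genes were tested and 0 called, against 0.0499% of 12017 genes. Lyve1 was at 6.70, 4.62 and 7.06 CPM in knockout and 2.43, 2.52 and 3.20 CPM in control mice, on 48 and 23 UMIs. It was the 1 gene of 9 without overlap, against 9.53% of all genes, with a change of 1.17 (SE 0.36, unadjusted p 0.00729, adjusted p 1.00 by edgeR). The 8 hepatocyte markers in stellate nuclei summed to 761 to 1407 CPM in knockout and 468 to 616 CPM in control mice, with all 8 higher on average in knockout mice and none at 0, and their part in this value was not tested. Clec4g in stellate nuclei was at 24.3, 20.8 and 32.4 CPM in knockout and 18.4, 15.1 and 22.0 CPM in control mice (unadjusted p 0.0473 by edgeR), with control 3 above knockout 2. The 12 endothelial markers in stellate nuclei were at 593 to 798 CPM in knockout and 647 to 1135 CPM in control mice.

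In T/NK cells 6 genes were tested and 0 called, against 0.0152% of 6577. Clec4g was at 36.6, 23.7 and 21.5 CPM in knockout and 116, 73.1 and 30.7 CPM in control mice, a change of -1.44 (unadjusted p 0.00231, adjusted p 0.998 by edgeR), with control 3 below knockout 1. Without control 3, Stab2 at -2.50 (adjusted p 0.000226) and Clec4g at -1.79 (adjusted p 0.0117) passed by edgeR. The number of all genes passing without control 3 was not counted. The 12 endothelial markers in T/NK nuclei were at 409 to 489 CPM in knockout and 440.0 to 1094 CPM in control mice, with 0 of 12 higher on average in knockout mice and none at 0; their part was not tested. Fcgr2b was the 1 gene of 6 without overlap, against 9.79% of all genes, at 36.6, 26.6 and 35.8 CPM in knockout and 53.0, 66.5 and 36.8 CPM in control mice.

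In B cells 4 genes were tested and 0 called, against 0.0411% of 4861. Fcgr2b was at 195, 193 and 189.8 CPM in knockout and 149, 179 and 182 CPM in control mice, the 1 gene of 4 without overlap, against 9.32% of all genes. Its change was 0.18 (interval -0.24 to 0.61). Mrc1 was at 44.6, 96.6 and 39.3 CPM in knockout and 52.7, 110.0 and 231 CPM in control mice, with knockout 2 above control 1 and most of the control level in control 3. Without control 1, Cd163 passed in B cells at -3.15 (adjusted p 0.0348), and without control 1 and knockout 2, Mrc1 at -2.08 (adjusted p 0.00883), both by edgeR. The numbers of all genes passing in these fits were not counted. The 8 macrophage markers in B nuclei were at 454 to 574 CPM in knockout and 353 to 827 CPM in control mice, with none at 0, and their part was not tested. In hepatocytes 0 of 9 genes were called, against 0% of 13749 and 467 at an unadjusted p under 0.05 by edgeR, and 0 of 9 were without overlap, against 7.63%. In cholangiocytes none of the 10 had enough counts to be tested, and 8.65% of 6649 genes there were without overlap and 0% called.

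The wider pathway was described with 9 lists of scavenger, lectin, Fc receptor, endocytic, lysosomal, transcription, iron and efferocytosis genes. None of their genes was called in endothelial nuclei or macrophages. In endothelial nuclei, of 12 other scavenger receptors tested 6 had a higher and 6 a lower fitted level in knockout mice, with a median of -0.0017. Of these 12, 3 had an unadjusted p under 0.05, against 4.28% of all genes, and 4 had groups that did not overlap, against 9.44%. In each of the other 8 lists 0 to 3 genes were under that p and 0 to 4 did not overlap. Cd36, the fatty acid and lipoprotein receptor, was at 499 ± 38.5 CPM in knockout and 416 ± 19.5 CPM in control mice (SD, n = 3 each), a change of 0.26 (SE 0.10, unadjusted p 0.0269 by edgeR). Of 28 endocytosis genes 10 were higher and 18 lower (median -0.052), and the adaptor Dab2 was at 929 ± 218 CPM in knockout and 925 ± 137 CPM in control mice. Of 21 lysosomal genes 13 were higher and 8 lower (median 0.093), and the protease Ctsd was at 65.7 ± 3.70 CPM in knockout and 51.1 ± 4.27 CPM in control mice, a change of 0.36 (SE 0.11, unadjusted p 0.00874 by edgeR).

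Of 16 sinusoidal transcription genes 6 were higher and 10 lower in endothelial nuclei (median -0.067). Klf2, the shear-responsive factor, was at 108 ± 29.3 CPM in knockout and 179 ± 43.9 CPM in control mice, a change of -0.73 (SE 0.25, unadjusted p 0.0204 by edgeR), and Maf, a regulator of sinusoidal identity, was at 1860.0 ± 215 and 1911 ± 159.6 CPM. Id1, a target of bone morphogenetic protein signalling, was at 35.3 ± 1.30 CPM in knockout and 52.0 ± 14.0 CPM in control mice, a change of -0.57 (unadjusted p 0.0106 by edgeR). Of 15 efferocytosis genes 5 were higher and 10 lower (median -0.18), and of 13 C-type lectins 3 were higher and 10 lower (median -0.082). The Fc receptor list (4 higher, 3 lower) and the heme and iron list (10 higher, 9 lower) had medians of 0.0092 and 0.022. The list of Kupffer transcription genes, tested there too, had 10 higher and 7 lower, with a median of 0.045.

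In macrophages, of 15 C-type lectins 9 were higher and 6 lower (median 0.16). Clec4n, a receptor for fungal mannans, was at 107 ± 15.1 CPM in knockout and 80.8 ± 11.0 CPM in control mice, a change of 0.41 (unadjusted p 0.0215 by edgeR), and Clec4f at 4073 ± 859 and 3639 ± 482 CPM. Cd68, the lysosomal scavenger receptor, was at 73.8 ± 8.01 CPM in knockout and 56.7 ± 8.48 CPM in control mice, a change of 0.38 (unadjusted p 0.0300 by edgeR). Of 19 genes of Kupffer transcription and the liver X receptor axis 13 were higher and 6 lower (median 0.029), and Nr1h3, which encodes liver X receptor alpha, was at 404 ± 66.6 CPM in knockout and 333 ± 55.9 CPM in control mice. Of 19 heme and iron genes 10 were higher and 9 lower (median 0.020), and Slc40a1, the iron exporter ferroportin, was at 2184 ± 324 CPM in knockout and 2268 ± 239 CPM in control mice. The lysosomal list (16 higher, 5 lower), the endocytosis list (17 higher, 9 lower), the efferocytosis list (5 higher, 8 lower) and the other scavenger receptors (5 higher, 6 lower) had medians of 0.054, 0.052, -0.052 and -0.10. The Fc receptor list (4 higher, 3 lower) and the sinusoidal transcription list (7 higher, 4 lower) had medians of 0.065 and 0.062. The median over all genes was -0.0043 in endothelial nuclei and 0.0030 in macrophages.

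Across the 19 clusters and classes, the genes whose mean level followed each receptor most closely were ranked by Pearson's r of log2(CPM + 1), over 8725 genes, as a description of groups that share libraries and depth. Cd5l was closest to Clec4f (r = 0.99), Ms4a8a (0.97) and Gbp2b (0.97), and Cd163 to Vsig4, a complement receptor (0.97), Gbp2b (0.97) and Ms4a8a (0.96). Marco was closest to the chemokine Cxcl13 (0.95), Mmp27 (0.92) and Naip1 (0.92), of which Cxcl13 is also among the leading genes of the Cxcl10-led cluster. Clec4g was closest to Kdr, the main receptor for vascular endothelial growth factor (0.98), Col13a1 (0.97) and Pcdh12 (0.96). Lyve1 was closest to Oit3 (0.96), Plxnd1 (0.93) and Cldn5 (0.92), and Stab2 to the DNase Dnase1l3 (0.94), Ago3 (0.93) and Exoc5 (0.92). Fcgr2b was closest to Rasgrp3 (0.95), Rps6ka2 (0.91) and Elf1 (0.90), and Stab1 to Npl, Hprt and Zfp366 (0.94 each). Mrc1 was closest to Anks1 (0.96), the platelet and sinusoidal lectin Clec1b (0.96) and Tfec (0.95), and Msr1 to Ripk1 (0.92), Ctla2b (0.90) and Anks1 (0.90). Kdr, Oit3, Dnase1l3, Clec4f and Vsig4 are among the markers that named the classes. Among the 10 genes themselves, the closest pairs were Cd163 with Cd5l (0.95), Mrc1 with Msr1 (0.93), Marco with Cd5l (0.91) and Stab2 with Clec4g (0.90), and Clec4g with Cd163 had an r of -0.37.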

How the data were processed

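Nuclei of 6 mouse livers were profiled with Chromium 3′ v3.1 chemistry, per the labels. The deposited counts, UMIs per gene and nucleus on mm10, come from Cell Ranger, version 7.0.1 per the submitters' processing notes and 7.1.0 per the file headers; whether intronic reads and strand were used is not stated in the sources used. Libraries held 23153182 to 27199466 UMIs, and intervals and floors on single counts cover counting error only.

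The 10 genes and all gene lists were chosen with earlier results of these data known. Nuclei with at least 500 genes, at least 1000 UMIs and under 5% mitochondrial UMIs were kept, 805 scored doublets were removed, and 25662 nuclei were clustered with scanpy 1.11.5 and leidenalg 0.10.2 at resolution 1 on 3000 variable genes and 30 components, without the 10 genes and Plvap. Classes were named from markers at a score of at least 1.1. Clusters of mixed markers, a cholangiocyte cluster of 286 nuclei with 96.5% from control 2 and a neutrophil-scored cluster of 172 were left out. A cluster of 615 hepatocytes, 93.8% of them from knockout 1, stayed in.

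UMIs were summed per mouse and class, at 20 nuclei or more per mouse, and tested in R 4.3.3 with edgeR 4.0.16 (filterByExpr, TMM, robust quasi-likelihood, Benjamini-Hochberg adjustment within a class, threshold 0.05), fitted on all genes. Differences between classes were tested with mouse as a term. DESeq2 1.42.0, other scalings, filters, clusterings and left-out mice were alternatives. Scripts were tested on simulated data. The text names all 10 genes and, among the genes of each list, can name the one with the highest mean level and the one with the smallest p in endothelial nuclei and macrophages, and the 3 genes closest to each of the 10 over 19 groups among genes reaching 50 CPM. Replicate numbers follow accession order and pair no mice. The labels name separate mice. No column of samples outside the series was present.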

Additional observations from a re-analysis of the deposited data

How the results depend on the processing

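The 14 fold changes fitted over all endothelial nuclei or all macrophages were repeated 182 times, and 170 repeats kept their direction and their side of the threshold. Those that changed sign were Mrc1 in endothelial nuclei, at 0.018 with library size alone and -0.15 to 0.12 over left-out mice; in endothelial nuclei with 1 mouse left out, Clec4g at -0.26 to 0.10 and Msr1 at -0.038 to 0.15; and in macrophages, Stab1 at -0.72 to 0.079, Stab2 at -0.053 to 0.095 and Cd5l at -0.032 to 0.78. Over these 2 classes the smallest adjusted p of the 14 in any setting was 0.755, by edgeR. Genes called numbered 22 in endothelial nuclei and 7 in macrophages with DESeq2, 26 and 11 with no filter on low counts, and 1 in macrophages with thinned nuclei. The alternatives within single zones, macrophage clusters and other classes were chosen after seeing the data, and called 0 of the 10 genes in the zones and clusters. Without control 1 and knockout 2, the genes called numbered 7 in endothelial nuclei and 2 in macrophages, and 1 of the 10 genes was called in the other classes. With 1 mouse left out, 0 to 4 genes were called in endothelial nuclei (4 without control 1, 1 without knockout 2), 0 to 2 of the 10 in the pericentral minus periportal difference (2 without control 2) and 0 to 2 in the other classes (1 without control 1, 2 without control 3). The causes were not tested. For the difference between zones and for the other classes, the calls over all genes were not counted with mice left out. All 10 genes kept their leading class at resolutions 0.6 and 1.5 and with the 10 genes allowed among the variable genes; clusters within classes were not matched under these. Knockout mice could not be paired with control mice because the labels give no replicate numbers. With 3 mice a group, the intervals in the text set the sizes that could be seen, and genes under about 100 UMIs are limited by depth.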
